A study of Mus musculus with 8 samples.

Results

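The mitochondrial respiratory chain and ATP synthase carry out oxidative phosphorylation: complexes I to IV pass electrons to oxygen and pump protons across the inner membrane, and ATP synthase uses the returning protons to make ATP. The genes described here were the protein-coding genes of the GENCODE mouse annotation (mm10) whose symbols start with Nduf, Uqcr, Cox4 to Cox8 or Atp5, together with Sdha, Sdhb, Sdhc and Sdhd. This rule, which used no measured value, gave 94 gene records of 21951 protein-coding genes, with 93 symbols because Atp5o has 2 records. Grouped by symbol, they comprised 46 Nduf genes counted under complex I (7 core subunits, 31 others counted as accessory subunits and 8 assembly factors). The rest were 4 of complex II, 8 of complex III, 18 of complex IV and 18 of ATP synthase. Ndufa4 and Ndufa4l2 were counted as accessory because of their symbols only.

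Promoters of many of these genes are known targets of housekeeping ETS factors, above all GABPA, also called nuclear respiratory factor 2, which bind sites around CCGGAAGT. NRF1, which binds a GC-rich palindrome, is another known regulator of the pathway. PU.1 is the ETS factor of the blood lineages. It reads the same GGAA core, preferably after purines (GAGGAAGT), and works in myeloid cells together with CEBPA, which binds TTGCNNAA-type sites.

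The data were ChIP-Seq peak lists from X18.1.1, a cell line from a radiation-induced mouse acute myeloid leukaemia. The line lacks one Pu.1 allele, and its other allele is mutated in the DNA-binding domain by a substitution and in the PEST domain by a deletion, so both groups below make mutant PU.1. PU.1− was a clone transduced with the empty MSCV-puro retrovirus (EV), and PU.1+ was a clone transduced with PuER, a fusion of PU.1 to the ligand-binding domain of the oestrogen receptor that hydroxytamoxifen (OHT) switches on. Both received 100 nM OHT for 2 h. PU.1 and CEBPA were each immunoprecipitated once from each line, which makes 4 libraries of the 8 samples listed, while those for H3K27Ac and IgG were not used here. Each group was 1 clone and 1 library per antibody, so a difference between clones cannot be told apart from an effect of PuER, no difference below has a replicate check and no p-value was computed.

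The lists held 5288 (PU.1 in PU.1−), 15683 (PU.1 in PU.1+), 26119 (CEBPA in PU.1−) and 20583 peaks (CEBPA in PU.1+), all 400 bp wide and without heights, scores or read counts. The depth of each library is therefore unknown, and a missing peak does not show that the factor was absent. A promoter peak is one centred no farther than 1000 bp from where any annotated transcript of the gene begins. Promoter peaks made up 26.6% of the PU.1 list of the PU.1− clone but 12.0% of the PU.1+ one. For CEBPA they made up 17.1% (PU.1−) and 17.5% (PU.1+).

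Sequences at PU.1 promoter peaks of respiratory chain genes are shown first, because they hold the ETS sites on which the comparison with GABPA-type sites rests. Each is a window of 30 bases from the GRCm38.p6 (mm10) genome, 5′ to 3′ on the strand that reads GGAA. Capitals mark the GGAAGT nearest to the peak centre or, for Atp5c1 and Atp5d, which had no GGAAGT in the whole peak, the GGAA nearest to it. The lists that called the peak are named.
Ndufb5 (both), chr3:32737045-32737074, minus strand, exon and UTR of Ndufb5 and Mrpl47: ccggccacggaaGGAAGTggggagggctaa
Ndufaf6 (both), chr4:11077073-11077102, plus strand, upstream: aaggctgagacaGGAAGTgttgagtgttca
Sdhb (PU.1− only), chr4:140961239-140961268, minus strand, exon and UTR: agccaatgtacaGGAAGTgcgtgtgtgcag
Ndufs7 (PU.1− only), chr10:80249260-80249289, plus strand, intron: actgaataaagtGGAAGTtctttattttgt
Ndufb9 (both), chr15:58933721-58933750, plus strand, exon and UTR of Tatdn1: ccagggaaaagcGGAAGTggctcagagcac
Ndufv1 (PU.1− only), chr19:4012941-4012970, minus strand, upstream: gcaaagtctgtaGGAAGTggaatacttggg
Atp5c1 (PU.1− only), chr2:10080512-10080541, minus strand, upstream: tgggtggggccagGGAActcgcggcttcgg
Atp5d (PU.1− only), chr10:80142256-80142285, plus strand, exon and UTR: gggtggggccaagGGAAagtatacctccca

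The next windows show GABPA-type CCGGAAGT sites (capitals) in promoters of respiratory chain genes that had no PU.1 promoter peak in either line. Over all genes, those with this site had such a peak more often than those without, as given below.
Ndufs1, chr1:63176821-63176850, plus strand, exon and UTR of Ndufs1 and Eef1b2: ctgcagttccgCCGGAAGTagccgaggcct
Uqcrh, chr4:116075063-116075092, plus strand, upstream: cggcgacctggCCGGAAGTgcggcatactc
Uqcr11, chr10:80406869-80406898, minus strand, upstream: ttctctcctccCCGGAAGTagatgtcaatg
Uqcrq, chr11:53430808-53430837, minus strand, exon and UTR: ttccgctcctcCCGGAAGTgacgggcgaaa

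In PU.1−, 10 of the 94 genes (10.6%, exact 95% interval 5.22 to 18.7) had a PU.1 promoter peak, beside 6.80% of all protein-coding genes. In PU.1+ the number was 4 (4.26%, 1.17 to 10.5), beside 8.19% of all genes. Thus the PU.1 list as a whole was longer in PU.1+, while the number of respiratory chain genes with a promoter peak on it was 4 instead of 10. This contrast depended on the distance allowed: within 500 bp the counts were 9 (PU.1−) and 2 (PU.1+), and within 2500 bp they were 10 and 9. Intervals cover counting error only, and both background shares lay inside them.

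By gene, 6 of 94 (6.38%) had a PU.1 promoter peak only in PU.1−, beside 3.96% of all genes, and 4 (4.26%) had one in both lines, beside 2.84%. None gained one in PU.1+ alone: 0 of 94, which allows a share of up to 3.19% by the limit of 3 counts and 3.85% by the exact interval, beside 5.35% of all genes. The 0 depended on the distance too. Within 2500 bp, 5 genes (5.32%) had a PU.1 peak only in PU.1+, beside 8.47% of all genes: Ndufaf7, Ndufaf4, Cox6b2, Atp5o and Ndufs8. Within 500 bp the count stayed at 0, beside 3.63%. When any overlap of the 400-bp peak with the window was enough, it was 2.

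**Figure D1:**
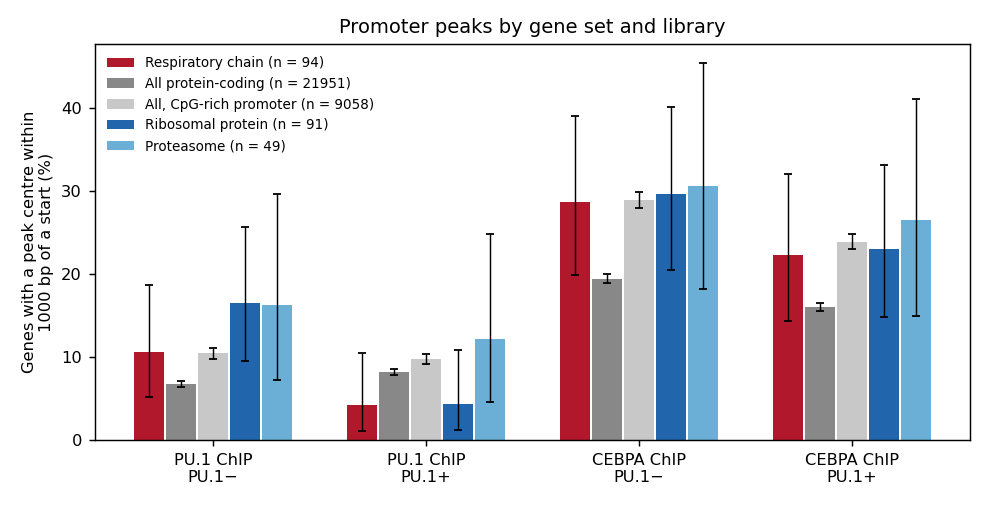
Percentage of genes with a peak centre within 1000 bp of a start (y axis, from 0) in each of the 4 libraries (x axis), for the respiratory chain genes and 4 other gene sets. Error bars are exact 95% intervals for counting error. For PU.1, respiratory chain genes stood at 10.6% (PU.1−) and 4.26% (PU.1+), for CEBPA at 28.7% and 22.3%.

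Of the 7 core subunits of complex I, which carry the flavin and iron-sulphur clusters, 3 had a PU.1 promoter peak in PU.1− and 1 in PU.1+. These were 42.9% (9.90 to 81.6) and 14.3% (0.36 to 57.9), beside 6.80% and 8.19% of all genes. With 7 genes, these intervals are wide. Ndufs7, which carries the iron-sulphur cluster next to the quinone, had a peak only in PU.1− (chr10:80249200-80249599, 50 bp upstream of an internal start), and the nearest PU.1+ centre was 90855 bp away. Ndufv1, the NADH-binding subunit, likewise had a peak only in PU.1− (chr19:4012746-4013145), 139 bp upstream of its start.

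Among the 31 accessory subunits, Ndufb5 and Ndufb9, both of the membrane arm, had PU.1 promoter peaks in both lines. That was 6.45% of the 31 (0.79 to 21.4), beside 2.84% of all genes. The Ndufb5 peaks were centred 41 bp upstream and 22 bp downstream of the start (chr3:32736750-32737149 and chr3:32736813-32737212), 63 bp apart, and the divergent gene Mrpl47, a mitochondrial ribosomal protein, starts within 1000 bp. The Ndufb9 peaks lay 30 and 8 bp upstream (chr15:58933527-58933926 and chr15:58933549-58933948), 22 bp apart, beside the start of Tatdn1. The assembly factor Ndufaf6 also kept its peak, the only one far from a start: the centres were 876 and 888 bp upstream, 12 bp apart. Overlapping peaks in both lines were thus found at 3 genes, all of complex I. Of the 4 genes counted in both lines, the other one had peaks that did not overlap.

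Outside complex I, every PU.1 promoter peak was on the PU.1− list alone. Sdhb, the iron-sulphur subunit of succinate dehydrogenase, had one 83 bp downstream of its start (chr4:140961087-140961486), with the nearest PU.1+ centre 16214 bp away. Cox7a2, the widely expressed isoform of a complex IV subunit, had one 72 bp upstream of a start (chr9:79759583-79759982), with the nearest PU.1+ centre 2841 bp away. The ATP synthase genes Atp5c1 and Atp5d, which encode the gamma and delta subunits of the turning stalk, had peaks 18 bp upstream of the start (chr2:10080329-10080728) and 38 bp upstream of a start that lies 3683 bp inside the record (chr10:80142078-80142477). The start of Kin lies within 1000 bp of the Atp5c1 peak. None of the 8 complex III genes had a PU.1 promoter peak in either line (0 to 36.9%), beside 6.80% (PU.1−) and 8.19% (PU.1+) of all genes.

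Of the 10 peaks in PU.1−, 9 had their centres within 150 bp of a start. The same share over all PU.1− promoter peaks was not computed. Ndufaf6 was the member just inside the limit of 1000 bp in both lines (876 and 888 bp). Just outside in PU.1+ was a peak of Ndufaf7 at 1136 bp. By peak, 3 of the 10 in PU.1− overlapped a PU.1+ peak, beside 36.9% of all PU.1− promoter peaks, and by gene 4 of 10 (40%) kept a promoter peak, beside 41.7% of all genes with one. The share of respiratory chain genes that kept a promoter peak was thus close to that of genes in general.

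**Figure D2:**
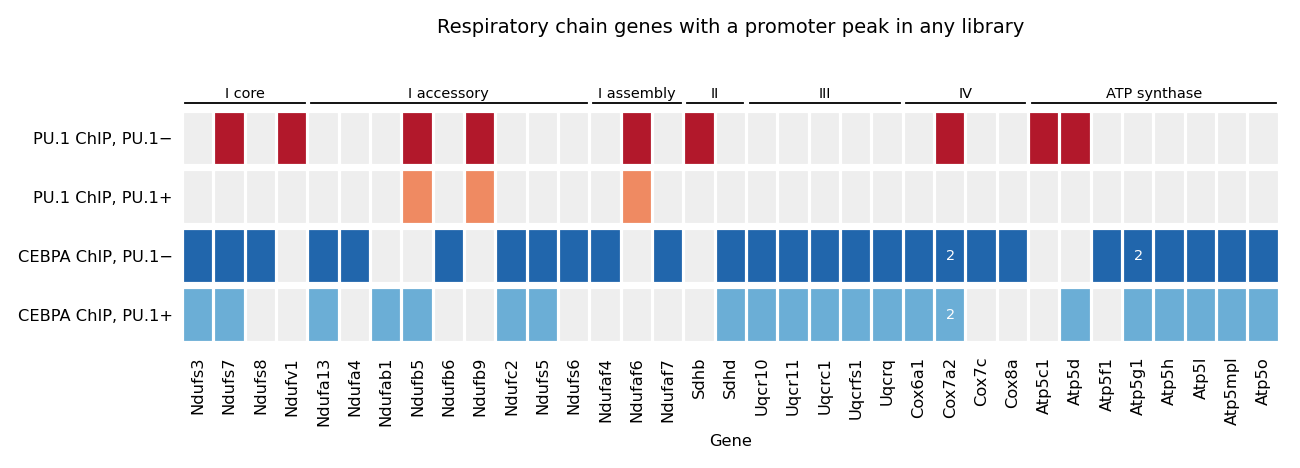
Of the 36 respiratory chain genes with a promoter peak in any library, 35 are drawn (columns, by complex) against the 4 libraries (rows). A coloured square is a called promoter peak, a grey square none, and the number 2 marks genes with 2 peaks. The PU.1+ row of the PU.1 ChIP is filled at Ndufb5, Ndufb9 and Ndufaf6.

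In the central 80 bp, 4 of the 10 PU.1− peaks (40%, 12.2 to 73.8) held GGAAGT on either strand, beside 38.4% of all PU.1− promoter peaks and 4.56% of windows 2000 bp to either side of those. In the whole 400 bp, 7 of the 10 held it. The shortest core, GGAA, was in the central 80 bp of 10 of 10, but also in 80.9% of all promoter peaks and 56.7% of flanking windows. In PU.1+, 3 of 4 peaks held a central GGAAGT (19.4 to 99.4%), beside 44.4% of all. The 4 PU.1− peaks with a central site were those of Ndufaf6, Sdhb, Ndufb9 and Ndufv1, with the site 6, 33, 9 and 10 bp from the centre.

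None of the PU.1 promoter peaks of these genes, over their whole width, held CCGGAAGT, which contains GGAAGT and is the form bound by GABPA. The exact intervals were 0 to 30.8% for the 10 peaks of PU.1− and 0 to 60.2% for the 4 of PU.1+. Over all promoter peaks, 11.1% of those in PU.1− and 3.72% of those in PU.1+ held it. Both shares lay inside those intervals. The PU.1-type GAGGAAGT, which also contains GGAAGT, was central in 0 of 10 PU.1− peaks (8.11% of all) and 1 of 4 PU.1+ peaks (15.1% of all).

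**Figure D3:**
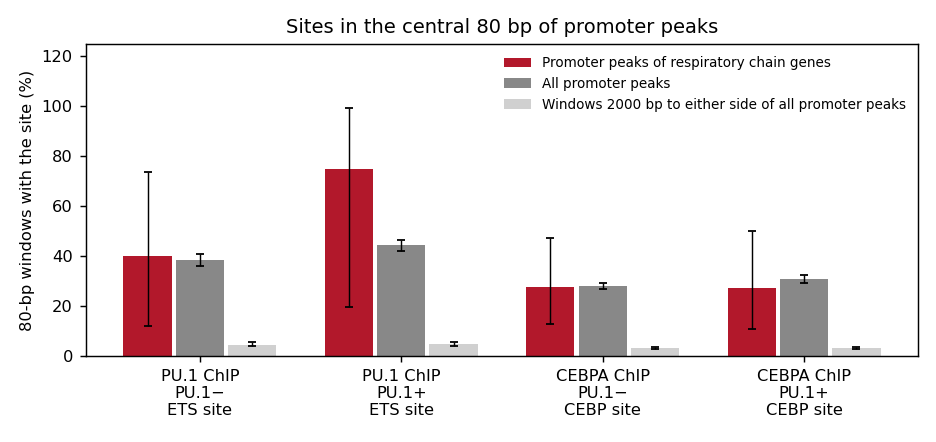
Percentage of 80-bp windows holding GGAAGT (ETS site, PU.1 libraries) or TTGCNNAA (CEBP site, CEBPA libraries), for promoter peaks of respiratory chain genes, all promoter peaks and windows 2000 bp to either side of the latter. Error bars are exact 95% intervals. The PU.1 shares of the respiratory chain genes rest on 10 and 4 peaks.

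The promoters themselves were searched in the window from 250 bp before to 50 bp after the 5′ end of each gene record, on both strands. CCGGAAGT was found in 6 of 94 (6.38%, 2.38 to 13.4), beside 4.70% of 21938 promoters: Atp5h, Cox8a (2 sites), Ndufs1, Uqcr11, Uqcrh and Uqcrq. None of these 6 had a PU.1 promoter peak in either line. With 6 genes, the interval of this count is wide. Over all genes, 15.6% of those with CCGGAAGT in this window had a PU.1 promoter peak in PU.1− and 11.1% in PU.1+, against 6.37% and 8.05% of those without. With the shorter CCGGAAG, the share of respiratory chain promoters was 19.1%, beside 10.8% of all. GAGGAAGT was found in none of the 94 and in 3.23% of all promoters.

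Sites of other housekeeping factors were counted in the same windows. The palindromic NRF1 site, matched over its whole length, was in 5 promoters (5.32%, 1.75 to 12.0, beside 1.22% of all): Atp5k, Cox6a1, Ndufa11, Ndufaf4 and Ndufaf5. AAGATGGC, the site of YY1, was in 9 (9.57%, 4.47 to 17.4, beside 2.92%), and TGACGTCA, the CREB site, in 4 (4.26%, beside 2.43%). CCAAT (40.4% beside 39.0%) and GGGCGG (42.6% beside 43.0%), the NF-Y and SP1 sites, stood near the share of all genes, as did TTGCNNAA (13.8% beside 10.5%). Shares among CpG-rich promoters only, which differed from these, are given below. These matches are descriptions of the letters in the window and say nothing on which factor was bound.

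Promoters of respiratory chain genes were often CpG-rich (observed over expected CpG of at least 0.6 and GC content of at least 50%): 56 of 94 (59.6%), beside 41.3% of all. Over all genes with such a promoter, 10.5% had a PU.1 promoter peak in PU.1− and 9.74% in PU.1+. The 56 respiratory chain genes had 5 (8.93%) and 2 (3.57%). For CEBPA, CpG-rich promoters in general reached 28.9% and 23.9%, and those of the 56 genes 30.4% and 25.0%. CCGGAAGT was in 8.93% of the 56 (2.96 to 19.6), beside 8.89% of all CpG-rich promoters. The NRF1 site was in 8.93% (2.96 to 19.6) beside 2.64%, and AAGATGGC in 10.7% (4.03 to 21.9) beside 4.90%. TGACGTCA was in 5.36% (1.12 to 14.9) beside 4.12%. CCAAT was in 37.5% of both, GGGCGG in 57.1% (43.2 to 70.3) beside 75.8%, and TTGCNNAA in 12.5% (5.18 to 24.1) beside 6.39%.

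CEBPA promoter peaks were more frequent than those of PU.1. They were found at 27 of 94 genes in PU.1− (28.7%, 19.9 to 39.0, beside 19.4% of all genes) and at 21 in PU.1+ (22.3%, 14.4 to 32.1, beside 16.0%). Both libraries had them at 18 genes (19.1%, beside 14.6%), PU.1− alone at 9 (9.57%, beside 4.88%) and PU.1+ alone at 3 (3.19%, beside 1.49%). The CEBPA list as a whole was also shorter in PU.1+. Of genes with a CEBPA promoter peak in PU.1−, 18 of 27 (66.7%) kept one in PU.1+, beside 74.9% of all such genes.

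Complex III had the largest share of its genes with CEBPA promoter peaks among the groups. It was 5 of 8 (62.5%, 24.5 to 91.5) in each line, beside 19.4% (PU.1−) and 16.0% (PU.1+) of all genes. The 5 genes, each with peaks in both lines, were Uqcrc1, a core protein, Uqcrfs1, the Rieske iron-sulphur protein, and the small subunits Uqcr10, Uqcr11 and Uqcrq. The peaks of Uqcrfs1 were centred 13 and 1 bp upstream of the start, those of Uqcr10 53 and 15 bp downstream, and those of Uqcrq 45 and 53 bp downstream. Those of Uqcrc1 (455 and 476 bp) and Uqcr11 (857 and 859 bp) lay farther upstream. Uqcr10 shares its start region with Zmat5, and Uqcrq with Gdf9. With 8 genes, the interval of this share is wide, and the group was singled out after the values were seen.

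Of the 7 core complex I genes, 3 (42.9%, 9.90 to 81.6) had a CEBPA promoter peak in PU.1−: Ndufs3, Ndufs7 and Ndufs8. In PU.1+ there were 2 (28.6%, 3.67 to 71.0), Ndufs3 and Ndufs7. Of all genes, 19.4% (PU.1−) and 16.0% (PU.1+) had one. Of the 31 accessory genes, 6 (19.4%) and 5 (16.1%) had one. The 8 assembly factors went from 2 (25.0%, Ndufaf4 and Ndufaf7) to 0 (0 to 36.9%). Of complex II, Sdhd had one in both lines, next to the divergent gene Timm8b. Complex IV went from 4 of 18 genes (22.2%) to 2 (11.1%). ATP synthase had 6 of 18 in each line, with Atp5f1 only in PU.1− and Atp5d only in PU.1+.

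The 9 genes with a CEBPA promoter peak only in PU.1− were Atp5f1, Ndufaf4, Ndufb6, Ndufa4, Ndufs6, Cox7c, Ndufaf7, Ndufs8 and Cox8a. Only Ndufb6, Ndufaf7 and Ndufs8 had the centre within 150 bp of a start (45 bp upstream, 23 bp upstream and 75 bp downstream). The nearest start to the Atp5f1 peak was that of Wdr77, and to the Ndufa4 peak that of Phf14. The 3 genes only in PU.1+ were Ndufab1, the mitochondrial acyl carrier protein (5 bp downstream), Atp5d (10 bp upstream of an internal start) and Ndufb5 (54 bp upstream). At the limit of 1000 bp, Ndufs3 was just inside in both lines (940 and 904 bp), and Ndufa1 (1031 bp, PU.1−) and Sdhb (1369 bp, PU.1+) were just outside.

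TTGCNNAA was in the central 80 bp of 8 of the 29 CEBPA promoter peaks in PU.1− (27.6%, beside 27.9% of all CEBPA promoter peaks and 3.15% of flanking windows) and of 6 of 22 in PU.1+ (27.3%, beside 30.9% and 3.18%). Examples are printed here, with the site in capitals, because they lay within 8 bp of the centre of the PU.1− peak.
Cox6a1 (both lines), chr5:115349018-115349047, minus strand, upstream: ctgagaaggcgTTGCCCAAtaggaacgtcg
Cox7a2 (both lines), chr9:79759636-79759665, minus strand, coding exon: gagccaagatgTTGCGGAAtctgctggtag
Cox7a2 second peak (both lines), chr9:79760482-79760511, plus strand, upstream: ttgcatcagtcTTGCATAActattcctcct
Uqcrfs1 (both lines), chr13:30545355-30545384, minus strand, upstream: ttcgctcaaccTTGCGAAAcgccctttccg
Atp5o (both lines), chr16:91930472-91930501, plus strand, intron: taatcaaatacTTGCGCAAttcctttctat

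**Figure D4:**
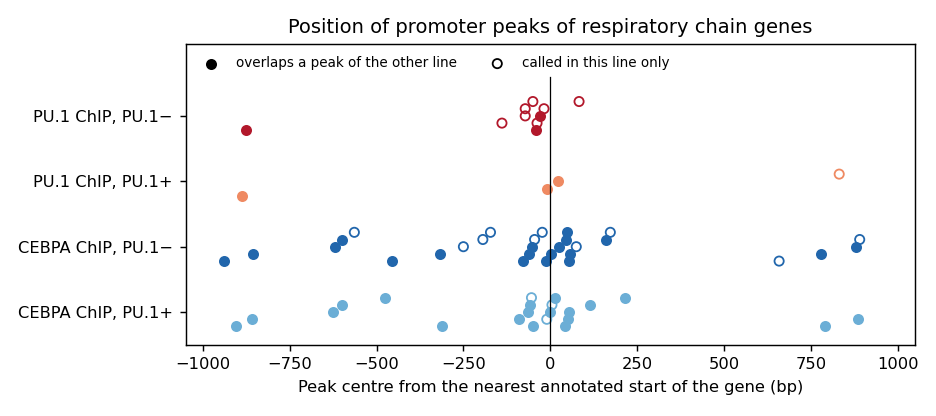
Distance of each promoter peak's centre from the nearest annotated start of its respiratory chain gene (x axis, bp, negative upstream), by library (rows; the vertical scatter within a row has no meaning). Filled points overlap a peak of the same antibody in the other line, open points do not. In the PU.1 row of PU.1−, 9 of 10 points lie within 150 bp of the start, 7 of 10 are open, and 3 are filled.

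In PU.1−, 2 genes carried promoter peaks of both PU.1 and CEBPA (2.13%, 0.26 to 7.48, beside 3.47% of all genes), Ndufs7 and Cox7a2, and in both the peaks overlapped. In PU.1+ there was 1 (1.06%, 0.027 to 5.79, beside 3.50%), Ndufb5, whose CEBPA peak was called only in that line and overlapped its PU.1 peak. Both background shares lay inside the intervals. By peak, 2 of 10 PU.1 promoter peaks in PU.1− overlapped a CEBPA peak, beside 38.6% of all PU.1− promoter peaks.

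With peaks in the gene body or within 20 kb counted, promoter peaks included, the number of respiratory chain genes with a PU.1 peak was 28 of 94 (29.8%, beside 23.7% of all genes) in PU.1− and 37 (39.4%, beside 41.4%) in PU.1+. The higher count in PU.1+ was also seen within 5 kb (17 in PU.1−, 20 in PU.1+) and within 50 kb (38 and 59). It was not seen with the gene body alone (7 in PU.1−, 6 in PU.1+) or with peaks whose nearest start was that of the gene (14 in each line). Within 20 kb, 21 (22.3%, beside 18.8%) had one in both lines, 7 (7.45%, beside 4.84%) only in PU.1− and 16 (17.0%, beside 22.6%) only in PU.1+. For CEBPA the numbers were 71 (75.5%, beside 56.5%) and 63 (67.0%, beside 51.3%): 62 (66.0%, beside 49.2%) in both lines, 9 (9.57%, beside 7.36%) only in PU.1− and 1 (1.06%, beside 2.10%) only in PU.1+. Respiratory chain genes were shorter than genes in general (median 7419 against 17403 bp) and had more starts of other genes within 20 kb (median 2 against 1).

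Most of these peaks were closer to another gene. Of the 63 PU.1+ PU.1 peaks near these genes but not at their promoters, 48 had another gene's start as the nearest and 15 that of the respiratory chain gene, and 43 were called only in PU.1+. In PU.1− there were 33 such peaks, 27 and 6 by nearest start. The second Atp5o record, 242585 bp long, runs through neighbouring genes and covered or neighboured 7 PU.1 peaks (PU.1−) and 10 (PU.1+). Without it, 26 and 54 peaks remained, of which 20 and 39 were nearest to another gene.

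Some of these peaks are described by their nearest genes. The PU.1+ peak 16705 bp from the start of Ndufa2 lay 1054 bp from that of Cd14, the lipopolysaccharide co-receptor of monocytes. The PU.1+ peaks 16420 and 17489 bp from Atp5a1 were closest to Pstpip2, which encodes an adaptor protein of macrophages. Sdhb had 3 PU.1 peaks on each list, including its promoter peak in PU.1−, and the others were nearest to Padi2 and Atp13a2. Ndufb10 had 1 peak in PU.1− and 4 in PU.1+, nearest to Msrb1 or Rpl3l, and Atp5f1 had 1 and 3, nearest to Ovgp1 or I830077J02Rik. Atp5d had 3 in PU.1− and 1 in PU.1+, the distal ones nearest to Midn. These genes were named here because they had 3 or more PU.1 peaks or, for Cd14 and Pstpip2, after their values were seen.

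**Figure D5:**
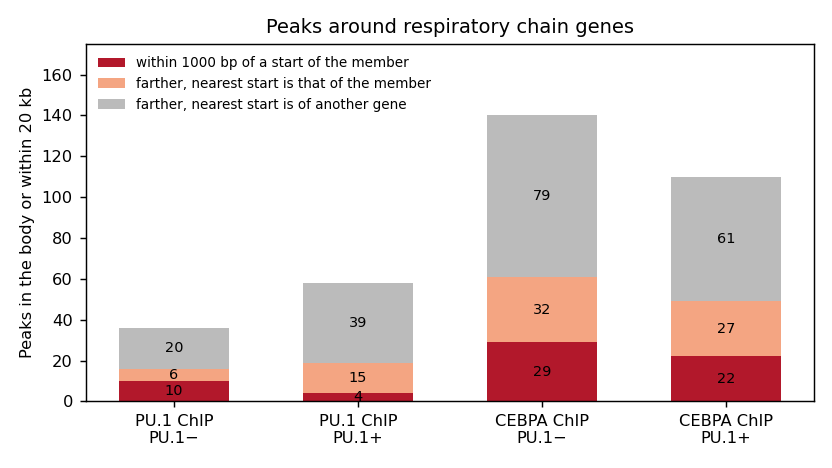
Number of peaks (y axis, from 0) in the body of or within 20 kb of respiratory chain genes in each library, without the long Atp5o record. Colours separate promoter peaks, other peaks whose nearest start was that of the respiratory chain gene, and other peaks nearest to the start of another gene. For PU.1 the last class went from 20 in PU.1− to 39 in PU.1+, and the promoter class from 10 to 4.

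The 15 PU.1+ peaks with a respiratory chain gene as the nearest start belonged to 11 genes, and 11 of the 15 were called only in PU.1+. One lay 1175 bp downstream of the Ndufaf4 start, inside the gene, and one 1970 bp upstream of Ndufs8; both held a central GAGGAAGT. Cox5a had one 4525 bp inside the gene, with a central GGAAGT. Cox6b2, the testis isoform of a complex IV subunit, had 3 PU.1 peaks within 20 kb on the PU.1+ list and 0 on the PU.1− list, one of them 1400 bp downstream of its start and the others nearest to Kmt5c.

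Tissue-restricted isoforms replace widely expressed subunits in tissues such as heart, skeletal muscle, lung and testis. The 8 genes counted as tissue-restricted isoforms were Cox4i2, Cox6a2, Cox6b2, Cox7a1, Cox7b2, Cox8b, Cox8c and, only as the relative of Ndufa4 by symbol, Ndufa4l2. None of them had a promoter peak in any library, where 73.0% of all genes also had none, and their median CpG ratio was 0.368. Of their 7 widely expressed partners, Cox6a1, Cox7a2, Cox8a and Ndufa4 had one, Cox4i1, Cox6b1 and Cox7b had none, and the median CpG ratio was 0.833. Over all respiratory chain genes, these isoforms included, 58 of 94 (61.7%, beside 73.0% of all genes) had no promoter peak in any library, and 19 (20.2%, beside 34.5%) had no peak in the body or within 20 kb.

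Other genes of the pathway were read from lists of known genes, beside the same shares of all genes as above (PU.1 6.80% and 8.19%, CEBPA 19.4% and 16.0%). Of 31 encoding cytochrome c and assembly factors, 6 (19.4%, 7.45 to 37.5) had a PU.1 promoter peak in PU.1− and 2 (6.45%) had one in PU.1+. The 2, Cox16 and Timmdc1, had it in both lines, Tmem126a, Atpaf2, Sco1 and Sco2 only in PU.1−, and none only in PU.1+. CEBPA promoter peaks were at 9 (29.0%) and 7 (22.6%) of the 31, among them Cycs, cytochrome c itself, in both lines. Of 13 regulators, 1 (7.69%) had a PU.1 promoter peak in PU.1− and 2 (15.4%) in PU.1+: Tfb2m, a mitochondrial transcription factor, in both, and Nrf1 only in PU.1+. Gabpa had no promoter peak in any library. CEBPA was at 5 (38.5%, 13.9 to 68.4) and 6 (46.2%, 19.2 to 74.9) of these regulators. Of 16 citric acid cycle genes, 2 (12.5%) had a PU.1 promoter peak in PU.1− (Dlst and Sucla2) and 1 (6.25%) in PU.1+ (Idh3g), and 3 (18.8%) and 2 (12.5%) had one of CEBPA. The lists hold few genes, so their intervals are wide.

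Values of other housekeeping genes, the cytosolic ribosomal protein and proteasome genes, are set beside those of the respiratory chain. Of 91, 15 (16.5%) had a PU.1 promoter peak in PU.1− and 4 (4.40%) in PU.1+, with none only in PU.1+. Of 49 proteasome genes, 8 (16.3%) had one in PU.1− and 6 (12.2%) in PU.1+, with 4 only in PU.1+. CEBPA promoter peaks in PU.1− were at 29.7% and 30.6%, beside 28.7% of the respiratory chain genes. The intervals of all 3 sets overlapped in each library, and the differences between them were not tested.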

How the data were processed

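PU.1 and CEBPA ChIP-Seq of the EV (PU.1−) and PuER (PU.1+) clones was examined, with 1 library each. The authors aligned reads to mm10 with Bowtie2 2.0.6 and called peaks with MACS2 2.0.10 (versions from the submitters' processing notes); the threshold is not given in the sources used here. The deposited lists hold only peak coordinates, with no score, count or signal, so depth is unknown and replicate error cannot be given. Some text of the study mentions samples at 0 h; the labels give 2 h for both lines, which was used.

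Peaks were assigned to GENCODE starts by their centre (1000 bp for promoters, gene body or 20 kb for nearby), and an overlap of at least 1 bp between the lists of an antibody counted as shared. Motifs were counted as exact matches on both strands (GRCm38.p6). Shares carry exact Clopper-Pearson 95% intervals. No test was run, as there were no replicates. Named were members with a PU.1 promoter peak, a CEBPA promoter peak in 1 line or 3 or more PU.1 peaks, and the tissue isoforms with their partners; others were named after their values were seen. The members and lists were chosen with earlier results of these data known. Kinases and other genes whose symbols only resemble ribosomal or proteasome names were left out of those lists after the design was fixed. Analyses used samtools 1.23.1, Python 3.11.15, pysam 0.24.0, scipy 1.17.1 and pandas 2.3.3, and the counting was tested on simulated data. Some genes and sequences are not reported here.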

Additional observations from a re-analysis of the deposited data

How the results depend on the processing

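Over 19 results, 83 alternatives were run; 62 stayed within 1.5 times the value reported (shares: within their exact interval) and 21 did not. With promoters at 500 bp, PU.1 promoter peaks were at 2 members in PU.1+ and 2 in both lines; at 2500 bp they were at 9 in PU.1+, 5 of them in PU.1+ only, and with any overlap of the peak 2 were in PU.1+ only. With the gene body alone, 7 (PU.1, PU.1−), 6 (PU.1, PU.1+), 23 (CEBPA, PU.1−) and 16 genes (CEBPA, PU.1+) had a peak. By nearest start the same 4 counts were 14, 14, 42 and 33. Within 5 kb they were 17 and 20 for PU.1 and 40 for CEBPA in PU.1+, and within 50 kb 59 for PU.1 in PU.1+. GGAA was central in 100% of the PU.1− promoter peaks. GGAAGT was in 100% of the PU.1+ ones in both the central 200 bp and the whole peak. CCGGAAG was in 19.1% of promoters. Leaving out the long Atp5o record, an alternative chosen after seeing the data, moved no count of members by over 1.5 times. No paired analysis was possible because each antibody and line had 1 library. Without depth, a peak called in 1 line only can be a difference in binding or in the sensitivity of the 2 libraries.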

Other observations

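The mitochondrial genome, which encodes further subunits of the respiratory chain, held 2 peaks, both on the CEBPA list of PU.1−. One, chrM:2618-3017, lay over the end of mt-Rnr2, mt-Tl1 and the start of mt-Nd1, a complex I subunit. The other, chrM:15900-16299, lay over no annotated gene. The other 3 lists held 0 there. The lists give no heights, and the IgG samples were not analysed here.

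Further CEBPA promoter peaks in the pathway were found in both lines at Surf1, Cox15, Cox18 and Cox19, which serve the assembly of complex IV, at Acad9, a complex I assembly factor, and at Tfb1m, Esrra and Ppargc1b among the regulators. Foxred1, Cox17 and Ogdh had one only in PU.1−, and Gabpb2, a partner subunit of GABPA, only in PU.1+. These genes were named after their values were seen.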
